A study of Rattus norvegicus with 6 samples.

Results

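The 7 collagen genes described here encode chains of the fibril-forming collagens of types I, III and V (Col1a1, Col1a2, Col3a1, Col5a1 and Col5a2) and of the microfibril-forming collagen of type VI (Col6a1 and Col6a3). They are 7 of the 29039 features in the deposited count table. All 7 were selected from genes that the study had called between predator odor (PO) and control odor in these same 6 libraries. Differences of these chains between the odors are therefore a description. Whether a chain passed the threshold of the test over all features is stated as part of that description, and is no independent evidence. RNA was sequenced from bilateral micropunches of the ventromedial hypothalamus (VMH) of male Sprague Dawley rats of approximately 10 months. After 2 weeks of handling and daily control odor, 3 rats (libraries C2, C3 and C4) received a piece of clean towel in the home cage and 3 rats (libraries P8, P13 and P14) a piece of towel that ferrets had used as bedding. Exposure lasted 20 minutes in both groups, the labels name no transgene or other treatment, and each library came from 1 rat. The comparison asks which transcripts in the VMH differ after brief exposure to the scent of a predator.

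Collagens are secreted proteins in which chains wind into a triple helix. Type I forms thick fibrils from chains of Col1a1 and Col1a2, type III is built of the Col3a1 chain alone, and type V, from chains of Col5a1 and Col5a2, sits inside these fibrils and helps to start them. Type VI makes beaded filaments around cells from chains of Col6a1, Col6a2 and Col6a3. In the brain, fibrillar collagen is largely found in the meninges, around vessels and in the stroma of the choroid plexus, where fibroblasts make much of it, and neural tissue itself holds little.

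Identifiers were taken from the deposited tables. Col1a1 is ENSRNOG00000003897, Col1a2 is ENSRNOG00000011292, Col3a1 is ENSRNOG00000003357, Col5a1 is ENSRNOG00000008749 and Col5a2 is ENSRNOG00000003736. Col6a1 is ENSRNOG00000001249. The feature called Col6a3, ENSRNOG00000019648, is listed under a clone name, and was identified by its description and by its NCBI gene number (367313). The feature called Col1a2 is paired in a deposited pathway table with an NCBI gene number (103689932) other than that of Col1a2 in RefSeq (84352), so its name rests on the table of called genes. In the RefSeq gene order of the assembly GRCr8, Col3a1 and Col5a2 are neighbours with 0 protein-coding genes between them, and Col6a1 is the neighbour of Col6a2. Coordinates in the build of the files (Rnor_5.0) were not used here.

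RefSeq gave the region upstream of the transcript start for 5 of the 7 genes. The 250 bases before the start are printed for 3 of them, because Col1a2 had one of the larger differences between the odors whereas Col5a2 and Col6a1 had the smallest of the 7. Capitals mark TATAAA and the letters ATTGG, which are CCAAT on the other strand. The regions are chr4:33518307-33518556 (plus strand) for Col1a2, chr9:55090152-55090401 (minus strand) for Col5a2 and chr20:11905440-11905689 (plus strand) for Col6a1, all in GRCr8 and written 5′ to 3′ on the strand of the gene.
Col1a2: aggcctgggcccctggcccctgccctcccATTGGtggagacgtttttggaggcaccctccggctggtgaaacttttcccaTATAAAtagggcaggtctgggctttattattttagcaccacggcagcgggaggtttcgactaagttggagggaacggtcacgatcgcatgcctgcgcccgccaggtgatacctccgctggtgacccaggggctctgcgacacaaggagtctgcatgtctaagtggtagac
Col5a2: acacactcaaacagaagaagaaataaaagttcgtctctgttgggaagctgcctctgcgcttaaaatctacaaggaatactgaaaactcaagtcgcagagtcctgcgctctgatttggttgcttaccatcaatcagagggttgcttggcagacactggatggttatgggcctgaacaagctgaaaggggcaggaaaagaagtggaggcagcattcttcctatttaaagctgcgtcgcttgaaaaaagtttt
Col6a1: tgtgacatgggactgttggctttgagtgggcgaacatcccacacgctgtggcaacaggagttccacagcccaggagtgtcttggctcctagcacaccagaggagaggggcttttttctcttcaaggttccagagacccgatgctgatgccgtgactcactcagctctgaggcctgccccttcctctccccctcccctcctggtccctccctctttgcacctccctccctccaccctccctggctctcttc
Both motifs occur in the Col1a2 stretch, at 221 to 217 bases (ATTGG) and 170 to 165 bases (TATAAA) before the annotated start, and neither occurs in the other two. The stretches of Col5a1 and Col6a3 are not printed because 250 and 102 of their bases lie inside the extent of the gene itself in RefSeq. Searched on both strands, CCAAT was found in 1 of the 5 stretches and in 34% of all 33469 RefSeq stretches of this length. TATAAA was found in 1 of the 5 (Col1a2) and in 12.9% of all. GGGCGG was found in 1 of the 5 (Col5a1, 127 to 122 bases before the start) and in 30.5% of all. No motif of the 3 searched was found in more than 1 of the 5 stretches. Only these exact letters were searched, and a link between the motifs and the difference between the odors was not tested. The GC content was 44.8% for Col5a2, 58.4% for Col1a2 and for Col6a3, 60.0% for Col6a1 and 71.6% for Col5a1, against a median of 51.2% over all stretches.

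The libraries held between 15835375 and 20316213 counts assigned to features, and 16685 features had enough counts to be tested, the 7 collagen genes among them. With edgeR's quasi-likelihood test, 59 features passed an adjusted p of 0.05 after Benjamini-Hochberg adjustment, 35 lower and 24 higher after PO exposure. Scaled by library size alone, 87 were lower and 16 higher. Sources used here pair 165 feature IDs with a gene name, nearly all of them genes that the study had called, so counts of named genes are not independent evidence of a direction. None of 10 marker genes of VMH neurons has a name here, and the labelled region could not be checked against them.

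All 7 collagen chains had lower levels in every PO library than in any control odor library, in counts, in CPM (counts relative to the library total, with libraries scaled by TMM, the trimmed mean of M-values) and in the deposited FPKM. The pattern of 3 predator odor libraries below 3 control odor libraries was found for 13.2% of the features tested. Of the 7 chains, 3 passed the test (Col3a1, Col5a1 and Col5a2), all of them lower after PO exposure, and 4 did not pass (Col1a1, Col1a2, Col6a1 and Col6a3). Among all features tested, 0.21% passed in that direction. As the genes were chosen on this contrast, nothing is read from either share. The median log2 fold change of the 7 chains, PO over control odor, was -1.39, and that of all features tested was -0.01. In bulk tissue, fewer cells of a type and less RNA per cell cannot be told apart.

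**Figure D1:**
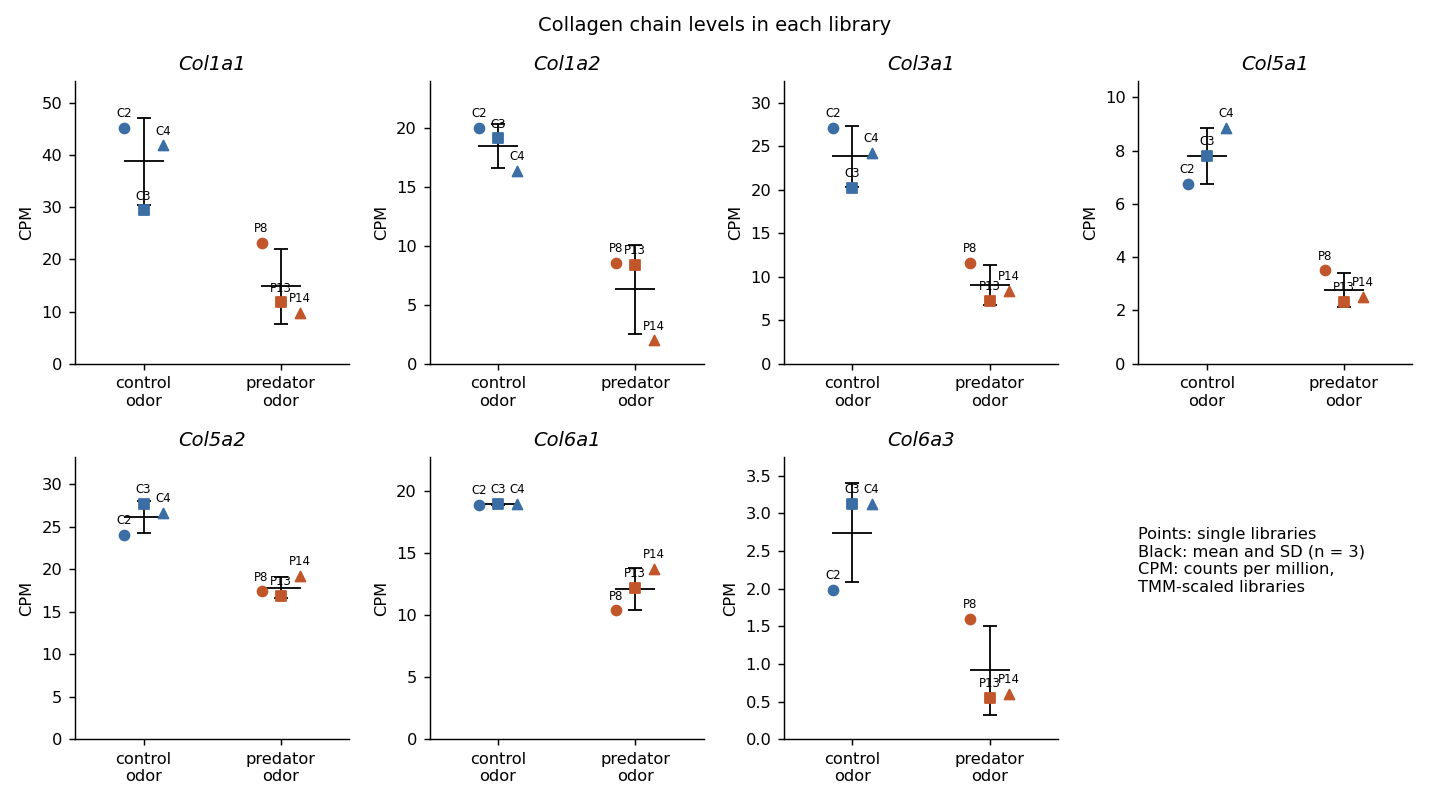
Level of each collagen chain in CPM (vertical axis from 0) in the 3 control odor libraries (blue) and the 3 predator odor libraries (orange), with the mean and SD of each group in black (n = 3). In all 7 panels the orange points lie below the blue points, and the lowest control odor value is between 1.24 (Col6a3) and 1.92 (Col5a1) times the highest predator odor value.

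Col1a1 encodes the chain that is present in 2 copies in a type I molecule in most tissues. Its level was 45.2, 29.4 and 41.9 CPM in C2, C3 and C4, and 23.1, 11.8 and 9.69 CPM in P8, P13 and P14. The groups do not overlap. In raw counts P8 (462) lay just under C3 (480), but P8 was the larger library, and in CPM C3 was 1.27 times P8. The means were 38.8 ± 8.32 and 14.9 ± 7.23 CPM (SD, n = 3), which is -1.38 as a log2 fold change (standard error, SE, 0.40). Col1a1 did not pass the test. Without P8 the log2 fold change was -1.85 and it passed.

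The second chain of type I, Col1a2, stood at 19.99, 19.1 and 16.4 CPM in C2, C3 and C4, and at 8.56, 8.39 and 1.97 CPM in P8, P13 and P14. The control odor libraries were close to each other, and P14 was far below P8 and P13. The library P14 held 33 counts of Col1a2 (95% exact Poisson interval 22.7 to 46.3, which covers counting error only). P13 held 152 (129 to 178), so P14 and P13 differed by more than counting error. The means were 18.5 ± 1.88 and 6.31 ± 3.75 CPM (SD, n = 3), which is -1.54 as a log2 fold change (SE 0.54). Col1a2 did not pass the test, and without P14 it passed with a log2 fold change of -1.13.

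Col3a1, the single chain of type III collagen, fell after PO exposure. It measured 27.1, 20.2 and 24.3 CPM in C2, C3 and C4, against 11.6, 7.23 and 8.38 CPM in P8, P13 and P14. The highest PO library was well below the lowest control odor library. The means were 23.8 ± 3.48 and 9.07 ± 2.27 CPM (SD, n = 3), which is -1.39 as a log2 fold change (SE 0.18). It no longer passed without C2, C4 or P14, where the log2 fold changes were -1.29, -1.38 and -1.34.

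Col5a1 encodes the type V chain that occurs in nearly all type V molecules, and it also fell. Values in C2, C3 and C4 were 6.74, 7.78 and 8.84 CPM, and those in P8, P13 and P14 were 3.502, 2.32 and 2.51 CPM. Within each group the libraries were close together relative to the gap between the groups. The means were 7.79 ± 1.05 and 2.78 ± 0.635 CPM (SD, n = 3), which is -1.48 as a log2 fold change (SE 0.22). The call was lost without any 1 of C2, C3, C4 or P14, with log2 fold changes between -1.57 and -1.38.

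The partner chain Col5a2 fell by less. It measured 24.1, 27.7 and 26.6 CPM in C2, C3 and C4, and 17.4, 16.9 and 19.2 CPM in P8, P13 and P14. The libraries of a group were near each other, and the small difference was called beside larger ones that were not. The means were 26.1 ± 1.86 and 17.8 ± 1.22 CPM (SD, n = 3), which is -0.55 as a log2 fold change (SE 0.10). The call was lost when any single library was left out, with log2 fold changes between -0.61 and -0.51.

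Col6a1 encodes the first of the type VI chains. Its level was 18.9, 19.0 and 19.0 CPM in C2, C3 and C4, and 10.4, 12.3 and 13.8 CPM in P8, P13 and P14. The 3 control odor libraries were almost the same (mean 19.0 ± 0.0410 CPM, SD, n = 3), and the PO libraries spread more widely (12.1 ± 1.68 CPM). At a log2 fold change of -0.65 (SE 0.12), Col6a1 did not pass the test. It passed without P13, with a log2 fold change of -0.64.

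Col6a3, the largest of the 3 main type VI chains, was the least abundant member. The libraries C2, C3 and C4 held 35, 51 and 58 counts, and P8, P13 and P14 held 32, 10 and 10 counts. In CPM these were 1.98, 3.13 and 3.13 against 1.60, 0.552 and 0.598. P8 lay close under C2, and P13 and P14 were far below both. The interval for counting error of 10 counts is 4.8 to 18.4, and that of the 32 counts in P8 is 21.9 to 45.2. The means were 2.75 ± 0.660 and 0.917 ± 0.593 CPM (SD, n = 3), which is -1.55 as a log2 fold change (SE 0.41). Col6a3 did not pass the test, and without P8 it passed with a log2 fold change of -2.23.

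**Figure D2:**
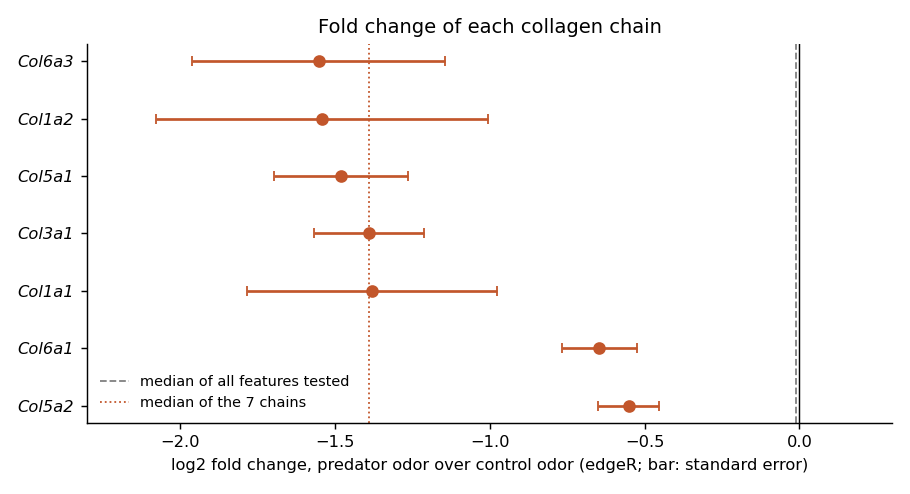
Log2 fold change of each chain, predator odor over control odor, from edgeR (horizontal axis), with its standard error as a bar, ordered from the lowest value. The dotted line is the median of the 7 chains (-1.39) and the dashed line that of all features tested (-0.01). Col5a2 (-0.55) and Col6a1 (-0.65) have the values nearest to 0.

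By size of the difference, 5 chains (Col1a1, Col1a2, Col3a1, Col5a1 and Col6a3) were between 2.60 and 2.93 times lower after PO exposure in the fit, whereas Col6a1 was 1.56 times and Col5a2 1.47 times lower. In this fit types V and VI each had a chain on both sides of this division. The neighbours Col3a1 and Col5a2 had log2 fold changes of -1.39 and -0.55. Differences between chains were not tested, and the SE was 0.40 for Col1a1, 0.54 for Col1a2 and 0.41 for Col6a3. With limma on log2(FPKM + 1), a scale that understates changes of low genes, the division was not kept. There Col6a3 was at -0.29 and Col5a1 at -0.71, beside -0.62 for Col6a1 and -0.51 for Col5a2. A log2 fold change at or below that of Col5a2 was seen for 5.80% of all features tested, and one at or below the median of the 7 chains for 0.611%.

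Leaving out single libraries moved some chains more than others. Over the 6 fits without 1 library, Col6a3 ranged from -2.23 to -1.28, Col1a1 from -1.85 to -1.15 and Col1a2 from -1.82 to -1.13. Col5a2 ranged from -0.61 to -0.51 and Col6a1 from -0.74 to -0.54. Without C2 and without C4 edgeR called 0 of the 7, where it called 0.0294% and 0.0236% of all features lower. It called 1 without C3 (Col3a1, with 0.0588% of all features lower), 1 without P14 (Col1a2, with 0.0176%), 3 without P13 (Col3a1, Col5a1 and Col6a1, with 0.465%) and 4 without P8 (Col1a1, Col3a1, Col5a1 and Col6a3, with 0.412%). The number of chains called and the share of all features called lower both changed between these fits, but did not rank them in the same order. DESeq2, run on the same counts, called 5 of the 7 lower. Of the 13707 features with an adjusted p, it called 2.08% lower. It left out Col1a2 and Col6a3, the latter without an adjusted p. limma voom called 0 of the 7 and 0.00599% of all features lower. At an unadjusted p under 0.05, 5 of the 7 were lower without C2 and 5 without C4, beside 6.92% and 8.68% of all features, and 7 of the 7 with voom, beside 9.57%. The choice of the genes on this contrast favours low unadjusted p values, and nothing is read from them.

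**Figure D3:**
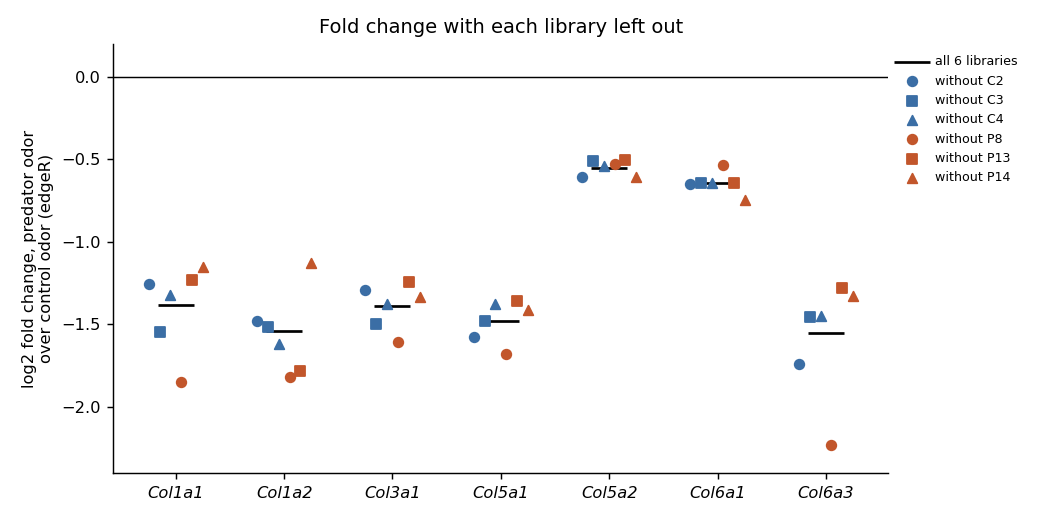
Log2 fold change of each chain from edgeR (vertical axis) with all 6 libraries (black bar) and with each control odor (blue) or predator odor (orange) library left out. All points lie below 0, which the choice of the genes on this contrast favours. The largest shifts are those of Col6a3 (-2.23) and Col1a1 (-1.85) without P8 and of Col1a2 (-1.13) without P14.

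Levels of different genes were compared only per length, in the FPKM that the authors deposited, which imply gene lengths from 2342 bases (Col6a1) to 7545 bases (Col6a3). In control odor libraries Col6a1 was highest, at 8.27 ± 0.0890 FPKM (SD, n = 3). Col1a1 followed at 6.81 ± 1.43, Col5a2 at 5.99 ± 0.435, Col3a1 at 5.11 ± 0.733 and Col1a2 at 4.24 ± 0.468 FPKM, and in this run from Col1a1 to Col1a2 each chain overlapped with the next. Col5a1 at 1.43 ± 0.182 and Col6a3 at 0.372 ± 0.0886 FPKM were clearly lower, with no overlap. After PO exposure Col6a1 was again highest at 5.06 ± 0.633 FPKM, and Col5a2 at 3.91 ± 0.190 FPKM now stood second in mean, though its values still overlapped with those of Col1a1 (2.498 ± 1.23 FPKM). Col3a1 (1.86 ± 0.473), Col1a2 (1.39 ± 0.838) and Col5a1 (0.489 ± 0.114 FPKM) came next, each overlapping with its neighbour, and Col6a3 was lowest at 0.119 ± 0.0777 FPKM.

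Summed over the 7 chains, C2, C3 and C4 had 33.7, 30.6 and 32.4 FPKM, and P8, P13 and P14 had 17.2, 14.8 and 13.9 FPKM. The sums were tight within each group (32.2 ± 1.55 and 15.3 ± 1.71 FPKM, SD, n = 3), although Col1a1 and Col1a2 varied widely between PO libraries. The share of Col6a1 in the sum was 25.7% ± 1.42 with control odor and 33.6% ± 7.57 after PO exposure, where P8 had 25.4% and P14 had 40.3%. The share of Col5a2 was 18.7% ± 2.25 and 25.7% ± 3.64, with the groups apart. In the other direction, and also apart, Col3a1 had 15.81% ± 1.52 and 12.04% ± 1.87 and Col5a1 had 4.46% ± 0.677 and 3.17% ± 0.406. Col1a1 made up 21.0% ± 3.53 and 15.9% ± 5.98, and here the groups overlapped.

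Ratios between chains of 1 collagen type were then taken within each library, which removes the library size. For type V, Col5a2 over Col5a1 was 4.44, 4.43 and 3.75 in C2, C3 and C4, and 6.19, 9.07 and 9.51 in P8, P13 and P14. Every PO library was above every control odor library (8.26 ± 1.81 against 4.21 ± 0.397, SD, n = 3). For type I, Col1a1 over Col1a2 was 1.73, 1.179 and 1.96, against 2.07, 1.07 and 3.76. These groups overlapped, and the 2 extremes were both PO libraries. For type VI, Col6a1 over Col6a3 was 30.7, 19.6 and 19.6, against 20.9, 71.5 and 74.1. P8 lay among the control odor libraries, and P13 and P14 rest on 10 counts of Col6a3 each. Col3a1 over Col1a1, which join in mixed fibrils, was 0.732, 0.838 and 0.708 against 0.614, 0.752 and 1.06, with no separation of the groups.

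**Figure D4:**
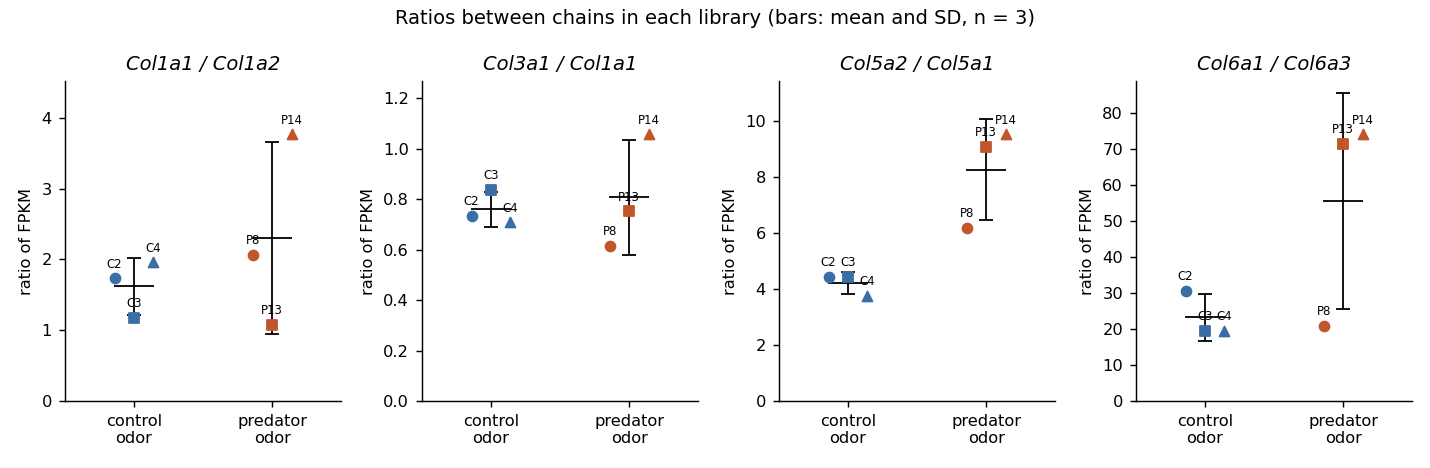
Ratio of the FPKM of 2 chains in each library (vertical axes from 0) for type I, for type III over type I, for type V and for type VI, with control odor in blue, predator odor in orange, and mean and SD in black (n = 3). The type V panel is the one in which the groups are apart, with control odor libraries between 3.75 and 4.44 and predator odor libraries between 6.19 and 9.51.

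Variation between rats of 1 group was uneven over the chains. The residual SD of log2 CPM about the group means was 0.84 for Col1a2 and 0.52 for Col1a1. It exceeded that of 98.6% of 2183 features within 0.5 log2 units of the level of Col1a2, and that of 98.7% of 2374 features for Col1a1. For Col3a1 it was 0.29 and exceeded 89.7%, and for Col6a3 it was 0.60 and exceeded 86.7%. Col5a1 (0.25, above 52.7%), Col6a1 (0.14, above 46.2%) and Col5a2 (0.10, above 31.2%) were near the middle or lower part of features of like level. For 6 of the 7 chains the SD of log2 CPM was larger among PO than among control odor libraries, and Col5a2 was the exception (0.10 and 0.10, the control odor value slightly larger). The same held for 56.6% of all features tested. The order depended on the scale. In CPM without the logarithm, Col1a1, Col3a1, Col5a1, Col5a2 and Col6a3 had the larger SD among control odor libraries. Col1a2 and Col6a1 had it among PO libraries.

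Among PO libraries, P8 was highest for 5 chains (Col1a1, Col1a2, Col3a1, Col5a1 and Col6a3), and it was the highest library for 30.8% of all features. For Col5a2 and Col6a1 the highest was P14. P8 was lowest for Col6a1, P13 for 4 chains and P14 for Col1a1 and Col1a2. Among control odor libraries C2 was highest for 3 chains, C3 for 2 and C4 for 2. C2 was also lowest for 4 chains (Col5a1, Col5a2, Col6a1 and Col6a3), C3 for 2 and C4 for 1. Over the 21 pairs of chains, deviations from the group means over the 6 libraries correlated above 0 in 13 pairs, with a median Pearson r of 0.22. The pair Col5a1 and Col6a3 reached 0.96, Col1a1 and Col3a1 0.89, and Col1a1 and Col6a1 -0.88. With 3 libraries a group these values are descriptive.

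**Figure D5:**
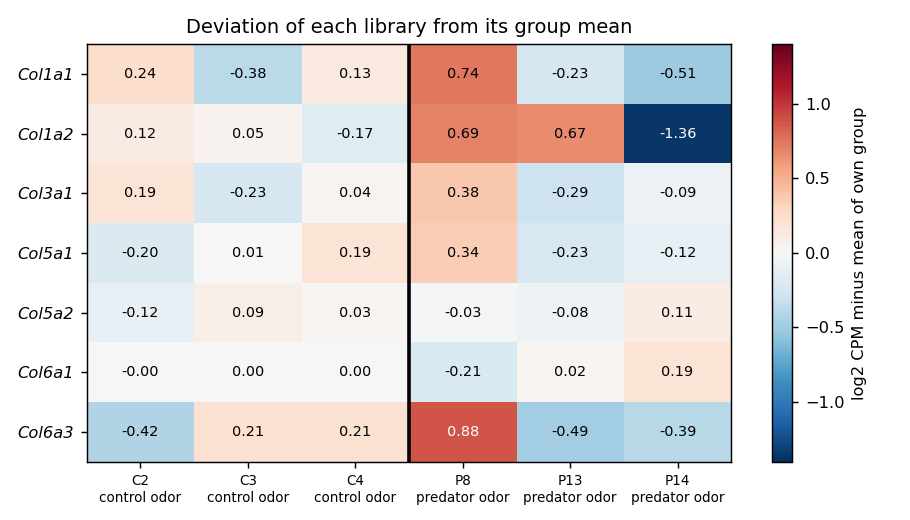
Deviation of each library from the mean of its own group in log2 CPM (colour and printed value) for the 7 chains (rows) and 6 libraries (columns, control odor left of the line). P8 is above its group mean for 5 chains and below it for Col5a2 and Col6a1, and P14 is lowest by far for Col1a2 (-1.36).

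Genes whose products bind fibrils or cleave collagen were taken from 6 lists. In 4 lists, other collagen chains (36 genes), collagen modification and secretion (25), procollagen cleavage and cross-linking (15) and collagen receptors (14), no gene has a name here, so Col6a2 and the prolyl hydroxylases and lysyl oxidases were not analysed here. Of 19 proteoglycans and fibril partners 3 have a name, and 1 passed the test, beside 0.21% of all features passing as lower. The named genes of these lists have a name because the study had called them on this contrast. Nothing is therefore read from this count or from their p values. Fn1, which encodes fibronectin, fell from 27.2, 24.9 and 25.9 CPM in C2, C3 and C4 to 17.5, 16.0 and 14.9 CPM in P8, P13 and P14 (log2 fold change -0.69, edgeR adjusted p = 0.027). The groups of Fn1 do not overlap, and its difference was near those of Col5a2 and Col6a1. Left out in turn, C2, C3, C4 and P14 gave adjusted p values from edgeR of 0.131, 0.0651, 0.0612 and 0.0607.

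Fmod, which encodes fibromodulin, a proteoglycan on fibrils of types I and II, was at 12.6, 8.95 and 18.9 CPM against 4.80, 2.43 and 4.85 CPM (log2 fold change -1.75, edgeR adjusted p = 0.0787). Thbs2, which encodes thrombospondin 2, was at 3.68, 3.74 and 5.82 CPM against 1.25, 1.88 and 1.86 CPM (log2 fold change -1.42, edgeR adjusted p = 0.0549). Neither passed, and neither showed overlap between the groups. Of 14 proteases and inhibitors 1 has a name, the membrane-bound matrix metalloproteinase Mmp14. It was at 28.9, 33.7 and 31.9 CPM against 17.8, 24.4 and 13.4 CPM (log2 fold change -0.76, edgeR adjusted p = 0.105).

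Likeness to the collagen chains was measured as Pearson's r over the 6 libraries between the log2 CPM of a gene and the mean of the standardized log2 CPM of the 7 chains, among 157 named genes that are not members. The points share the contrast on which nearly all of these genes had been called. The 5 highest were Slc13a4 (0.992), Nfatc4 (0.991), Fn1 (0.989), RT1-Ba (0.988) and RT1-Bb (0.986). They encode a sulfate transporter, a transcription factor of the NFAT family, fibronectin and 2 chains of MHC class II. Over all features tested that are not members, 1.01% had an r of at least 0.95. On deviations from the group means the 5 highest were Slc22a2 (0.961), Nfatc4 (0.938), Synpo2 (0.928), Tbx3 (0.928) and Slc13a4 (0.922), so Nfatc4 and Slc13a4 were in both sets. By this measure the chains themselves ran from 0.97 (Col5a1) to -0.77 (Col6a1), with Col5a2 at 0.08, so the mean did not stand for all 7. With 3 libraries a group these values are descriptive, and no share over all features was taken for deviations.

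Markers of other cells that a micropunch could hold were read in the same libraries. Of 18 markers of leptomeningeal and perivascular fibroblasts 9 have a name, all 9 had a log2 fold change below 0 and 4 passed the test. Over all features tested, 52.0% had a log2 fold change below 0 and 0.21% passed as lower. The 9 have a name because the study had called them on this contrast, so nothing is read from these counts. The summed level of the 9 was 69.3 to 119.6 FPKM in control odor libraries and 17.3 to 30.8 FPKM in PO libraries. The most abundant were Igfbp2 (43.1, 28.8 and 55.1 FPKM against 13.1, 4.49 and 4.92 FPKM), Crabp2 (12.1, 8.85 and 18.0 against 5.05, 3.90 and 4.37 FPKM) and Slc6a13 (6.81, 8.13 and 12.6 against 3.59, 2.81 and 3.02 FPKM). Cdh1 was at 0 counts in P13, and no other library had a named marker of this list at 0. In this list C4 was highest of the control odor libraries and P8 of the PO libraries, as P8 was for 5 of the 7 chains. C4 was highest for 2 of the 7.

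Other marker lists were named more thinly. Of 12 markers of ependyma and choroid plexus 3 have a name (Folr1, Tp73 and Slc44a4), and their sum was 5.69 to 7.42 FPKM with control odor and 12.01 to 28.3 FPKM after PO exposure. The highest was P13. edgeR called 0 of the 3, with 3 at an unadjusted p under 0.05, beside 19.8% of all features in either direction. DESeq2 called 3, and it called 580 of the 13707 features with an adjusted p higher. These 3 genes have a name because the study had called them on this contrast, so nothing is read from these counts. Olig2, the 1 named gene of 8 markers of the oligodendrocyte lineage, was at 16.5 to 19.8 FPKM in control odor libraries. It was at 25.8 FPKM in each PO library (log2 fold change 0.58, edgeR adjusted p = 0.0238). Cd74, the MHC class II invariant chain, is the 1 named gene of 9 markers of microglia and macrophages. It was at 18.5 to 21.5 FPKM against 5.73 to 11.5 FPKM and did not pass. The study had called both genes on this contrast, so nothing is read from whether they passed. No marker of mural cells, endothelium, or astrocytes and tanycytes has a name here. The part of any of these cell types in the collagen values was not tested.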

How the data were processed

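The authors deposited raw counts per feature, made with HISAT2 and HTSeq on Rnor_5.0, and FPKM, which equal those counts scaled by library total and 1 length per gene. The submitters' processing notes also name CASAVA 1.8 and DESeq. The authors' tables of called genes and pathways hold fold changes, p-values and enrichments of their own comparison. From these only IDs, names and gene numbers were used. Libraries were grouped by label, and no batch is given.

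edgeR 4.0.16 in R 4.3.3 (TMM, filterByExpr, robust quasi-likelihood fit, two-sided) was fitted to all features, with Benjamini-Hochberg adjustment over 16685 and a threshold of 0.05. DESeq2 1.42.0, limma 3.58.1 (voom, and log2(FPKM + 0.1) and log2(FPKM + 1)), other normalizations and filters, a fit without robust estimation and each library left out were the alternatives. The fit was also run on simulated counts with 200 changed genes. These were drawn from means and dispersions estimated in these data, so they cannot show how the calls depend on the fit. Python 3.11.15, pandas 2.3.3, NumPy 2.4.6 and Matplotlib 3.10.9 made tables and plots.

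The members and the gene lists were chosen with earlier results of these data known. The most fully named list has names for 9 of its 18 genes, so checks of lists as sets are void and lists are only counted. Named were all 7 members, every called gene of a pathway list (or, if 0 or over 4 were called, the 4 lowest by p), the 3 most abundant named genes of each marker list, and the 5 genes most like the members by each measure. Fmod, Thbs2 and Cdh1 were added after their values were seen.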

Additional observations from a re-analysis of the deposited data

How the results depend on the processing

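All 112 fold changes of single chains over the alternatives (16 for each of the 7) lay below 0. The genes were chosen on this contrast and their groups do not overlap, so nothing is read from the sign. The narrowest range was that of Col5a2 (-0.62 to -0.51 on the log2 scale) and the widest that of Col6a3 (-2.23 to -0.29). The small end is that of log2(FPKM + 1), a scale that understates changes of low genes, and Col5a1 was at -0.71 there. The 59 calls over all features became 103 with library size alone, 433 without a filter on low counts, 865 with DESeq2, 3 with limma voom and 2 without robust estimation. Leaving out 1 library gave 9 to 266. The 3 collagen calls became 5 without a filter (with Col6a1 and Col6a3) and 5 with DESeq2 (with Col1a1 and Col6a1), and 0 with voom and 0 without robust estimation (7 of the 7 at an unadjusted p under 0.05 in each, beside 9.57% and 9.62% of all features in that direction; the genes were chosen on this contrast). Leaving out 1 library gave 0 to 4. The 1 call among related matrix genes (Fn1) became 2 with library size alone, 2 without a filter, 4 with DESeq2, 0 with voom and 0 without robust estimation. With 1 library left out it became 0 to 3. All 4 named genes had an unadjusted p under 0.05 in each of these fits, and all were lower. Of all features, 5.49% (DESeq2) to 15.5% (library size alone) did so in that direction. The study had called these 4 genes on this contrast, so nothing is read from their p values. The median of the 7 chains, -1.39, lay between -1.68 and -1.15 with 1 library left out. The cause of these shifts was not tested. Library size alone moved the median of all features from -0.01 to -0.08.

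Counts limit Col6a3 most, with 10 in each of 2 PO libraries. With 3 libraries a group, Col1a1 and Col6a3 passed without P8, Col6a1 without P13 and Col1a2 without P14. The calls of Col3a1 (without C2, C4 or P14), Col5a1 (without C2, C3, C4 or P14) and Col5a2 (without any 1 library) were lost. No paired analysis was possible because the groups share no replicate number. No result was checked for outliers, since groups of 3 are too small.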
